A study of Mus musculus with 5 samples.

Results

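M2 macrophages were 542 of the 22118 annotated cells, or of 23852 cells in all, in single-cell RNA sequencing of mouse lungs that carried 4T1 metastases. They are the cells of the type M2 Macro in the deposited annotation, within the class of monocyte-derived cells. The 3 other types of that class were alveolar macrophages (1013 cells), monocytes (847 cells) and the mixed type M1 Macro/DC (345 cells). All mice were female BALB/c mice of 10 weeks (day 11) or 11 weeks (day 16). 4T1 is a mouse mammary carcinoma line. For 3 weeks, with 3 injections per week, the mice were injected with medium in which resected 4T1 tumors had been kept, called tumor-secreted factors (TSF), or with control medium (CM) incubated alongside without tumor. All of them were then given 25000 4T1 cells that carried the surface reporter CD90.1, by intravenous injection, and lungs were taken 11 days later (metastatic seeding) or 16 days later (metastatic colonization). Each library pooled dissociated lungs of 3 mice. There were 5 libraries in 4 groups. TSF-treated lungs of day 11 gave a pair of libraries, a and b, while the remaining groups gave 1 each.

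Macrophages of the lung belong to several populations. Alveolar macrophages live in the air spaces, clear surfactant and largely maintain themselves by division, while macrophages of the interstitium and the vessel wall are replaced in part from blood monocytes. The name M2 is used for macrophages with features of alternative activation, a state linked to tissue repair, uptake of dead cells and dampening of inflammation, and macrophages of this kind are common in tumors. Genes often used to recognize such cells are C1qa, C1qb and C1qc, which encode the chains of complement C1q, Mrc1, which encodes the mannose receptor CD206, and Apoe, which encodes the lipid carrier apolipoprotein E. On the mouse genome GRCm38, C1qa (chromosome 4, 136895917 to 136898803), C1qb (chromosome 4, 136880129 to 136886187) and C1qc (chromosome 4, 136889804 to 136893065) are neighbours on the minus strand, while Mrc1 (chromosome 2, 14229392 to 14332057) and Apoe (chromosome 7, 19696109 to 19699188) lie elsewhere.

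The label itself could not be checked here. The values analysed here for these cells were the number of UMIs (unique molecular identifiers, which count RNA molecules) and of genes, the mitochondrial percent, the cluster and the map position of each cell. The expression of C1qa, C1qb, Mrc1 and Apoe in the M2 macrophages themselves was not analysed here, and the name rests on the authors' annotation by markers. In the authors' clustering of all cells, 536 of the 542 cells came from 3 clusters, numbered 14, 86 and 124, and these held few other cells. Cluster 86 held 152 cells, all of them M2 macrophages. Cluster 14 held 266 M2 macrophages and 7 cells that were later set aside as doublets. Cluster 124 held 118 M2 macrophages and 2 monocytes. A second clustering of the monocyte-derived cells divided the 542 cells into 23 sub-clusters of 1 to 49 cells, and none of them held a cell of another type. The authors assigned types by hand to whole clusters and refined them on sub-clusters. This purity therefore follows largely from how the labels were given and is no check of the name.

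On the authors' UMAP map, a 2-dimensional layout in which cells with similar expression lie close together, the M2 macrophages formed 1 compact group. Among the 15 nearest cells of each M2 macrophage, of whatever type, the share that was also M2 was 99.6% for cells of cluster 14, 100% for cluster 86 and 99.0% for cluster 124. Of the centres of 5 other types that were measured, that of the M2 macrophages lay nearest to M1 Macro/DC (0.174 map units), then to monocytes (0.271) and plasmacytoid dendritic cells (0.361), and farther from alveolar macrophages (0.891) and cancer cells (1.02). The centres of the 3 M2 clusters were within 0.0424 to 0.0530 units of each other, and cluster 124 was the one nearest to both M1 Macro/DC (0.159) and monocytes (0.240). Distances on such a map are descriptive and have no fixed scale, and the clusters were drawn on the same map.

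**Figure D1:**
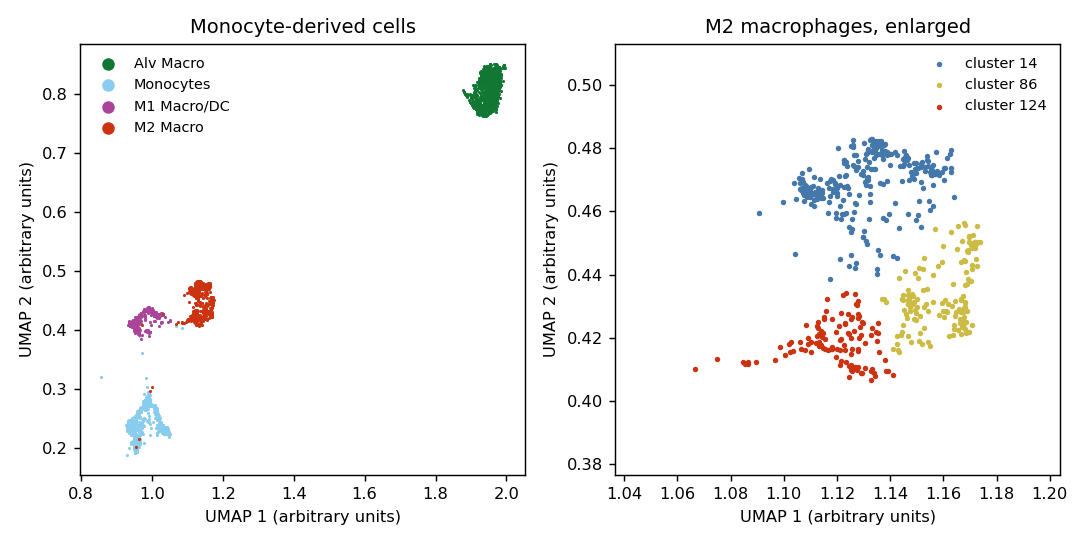
Position of the monocyte-derived cells of the 5 libraries on the authors' UMAP map, in arbitrary units on both axes, with 1 point per cell, coloured by type (left), and the M2 macrophages enlarged and coloured by first cluster (right), where the 6 cells of other clusters are not drawn. The M2 macrophages form 1 group beside M1 Macro/DC, far from alveolar macrophages, and clusters 14, 86 and 124 occupy adjacent areas of it.

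The libraries held 3835 to 5580 cells with 13240822 to 21451787 UMIs in all, and the median cell had 2236 to 2721 UMIs. Granulocytes, mostly neutrophils, were 4.47% to 6.00% of the annotated cells in 4 libraries and 29.1% in TSF at day 16. A share of all cells is lowered by any type that expands, so shares are also given with granulocytes left out of the denominator. Shares describe the dissociated suspension and not the number of cells per lung.

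Among annotated cells, TSF at day 16 had the highest share of M2 macrophages of the 5 libraries, and CM at day 16 the lowest. M2 macrophages were 104 of 3738 annotated cells in CM at day 11, a share of 2.78% (exact Clopper-Pearson 95% interval 2.28% to 3.36%). They were 117 of 5113 in TSF at day 11 library a, or 2.29% (1.90% to 2.74%), and 97 of 4804 in library b, or 2.02% (1.64% to 2.46%). The mean of the shares in a and b was 2.15% ± 0.190 (SD, n = 2 libraries). At day 16 they were 68 of 3567 in CM, or 1.91% (1.48% to 2.41%), and 156 of 4896 in TSF, or 3.19% (2.71% to 3.72%). The interval of TSF at day 16 lay above those of CM at day 16 and of TSF at day 11 library b, and overlapped those of CM at day 11 and of TSF at day 11 library a. Each interval covers counting error only, not differences between mice.

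With granulocytes left out, the order of TSF at day 16 against the rest became plainer. The shares were 2.91% (2.39% to 3.52%) in CM at day 11, 2.40% (1.99% to 2.87%) and 2.12% (1.73% to 2.58%) in TSF at day 11 libraries a and b, 2.03% (1.58% to 2.56%) in CM at day 16 and 4.49% (3.83% to 5.24%) in TSF at day 16. The interval of TSF at day 16 overlapped none of the other 4. Among immune cells without granulocytes, M2 macrophages were 9.32% in TSF at day 16 and 4.23% to 5.88% in the other libraries. With granulocytes kept among the immune cells, TSF at day 16 was not the highest library. M2 macrophages were then 5.37% in CM at day 11, 4.60% and 4.05% in TSF at day 11 libraries a and b, 3.73% in CM at day 16 and 5.04% in TSF at day 16. On that measure the ratio of TSF over CM at day 16 was 1.35 (1.01 to 1.82).

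**Figure D2:**
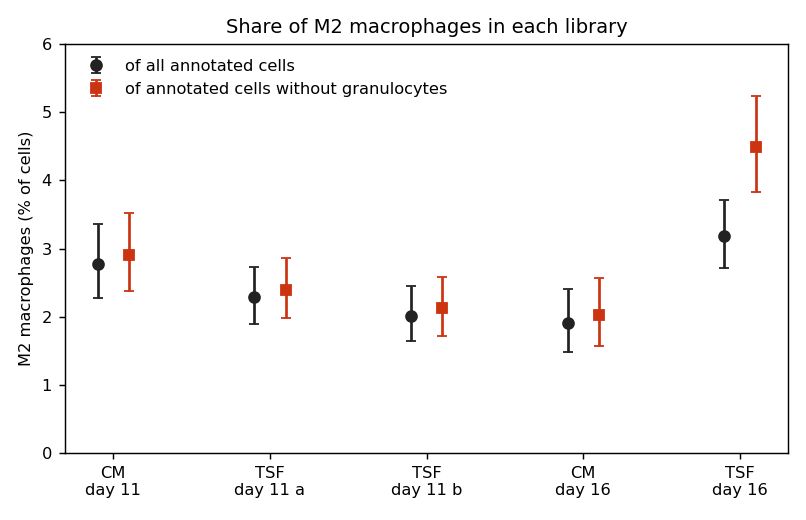
Share of M2 macrophages in each library in percent of all annotated cells (black circles) and of annotated cells without granulocytes (red squares), with exact 95% intervals for counting error as bars. Without granulocytes, TSF at day 16 (4.49%) lies above the other 4 libraries, which lie between 2.03% and 2.91%.

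The first question the design poses is how a lung treated with TSF differs from a lung treated with CM on the same day. At day 16 the M2 share among annotated cells was 1.67 times as high in TSF as in CM (exact 95% interval of the ratio 1.25 to 2.26). Without granulocytes it was 2.22 times as high (1.66 to 2.99). At day 11 the direction was the opposite, with a mean share in TSF that was 0.774 times that in CM (0.611 to 0.990) among annotated cells and 0.776 times (0.613 to 0.993) without granulocytes. Taken singly, library b gave 0.726 (0.545 to 0.966) and library a gave 0.822 (0.626 to 1.08), an interval that includes 1. The 2 libraries of TSF at day 11 differed from each other by a ratio of 1.13 (0.858 to 1.50), which is the only measure here of how far libraries of the same group differ, and the methods describe 1 pool of 3 dissociated lungs per group without saying whether a and b were made from the same pool. With 1 library for each of the other groups, no test between treatments was possible and no p-value is given.

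The second question is how the population changed with time as the metastases grew. In CM the M2 share was lower at day 16 than at day 11, by a ratio of 0.685 (0.497 to 0.939) among annotated cells and 0.696 (0.505 to 0.954) without granulocytes. The interval includes 1 in 1 of 13 alternatives, among monocyte-derived cells (0.863, 0.626 to 1.18). In TSF the M2 share was higher at day 16 than the mean of day 11, by 1.48 (1.19 to 1.82) among annotated cells and 1.99 (1.60 to 2.45) without granulocytes. The interval in TSF includes 1 in 3 of 16 alternatives, among them that of immune cells (1.16, 0.939 to 1.44). The comparisons of the 2 days and of the 2 treatments share libraries, so CM at day 16, the lowest library, enters the day 16 ratio of TSF over CM and the time ratio in CM alike.

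Beside the other cell types, M2 macrophages stood near the top of the order at day 16 and near the bottom at day 11. Of 21 annotated types ranked by the ratio of TSF over CM at day 16 among annotated cells, M2 macrophages were in place 3, after neutrophils and cancer cells. Without granulocytes they were in place 2 of 19 types, after cancer cells with a ratio of 4.63 (3.09 to 7.17) and just before monocytes with 2.00 (1.53 to 2.63), an order that the intervals do not separate. At day 11 they were in place 17 of the 19 types. Cancer cells were 6, 32, 43, 29 and 139 cells in CM at day 11, TSF at day 11 libraries a and b, CM at day 16 and TSF at day 16.

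**Figure D3:**
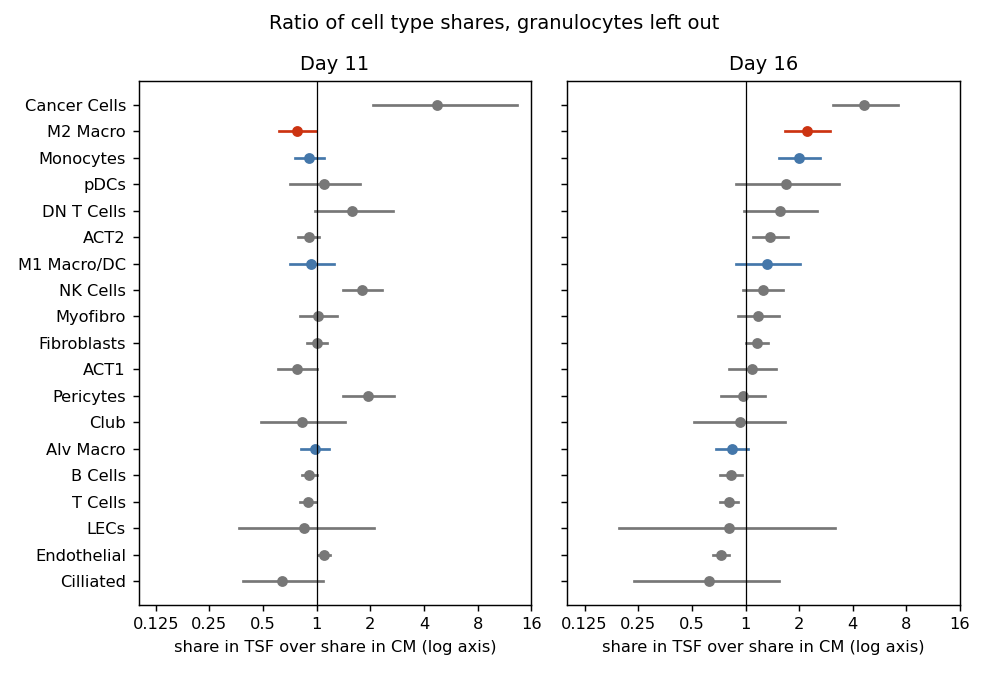
Ratio of the share of each cell type in TSF over that in CM at day 11 (mean share of libraries a and b) and day 16, with granulocytes left out, on a log axis, with exact 95% intervals for counting error. M2 macrophages (red) lie at 0.776 at day 11 and 2.22 at day 16, and the other monocyte-derived types are in blue.

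The other 3 monocyte-derived types did not all share this pattern. Monocytes, the blood cells from which macrophages can arise, numbered 173, 228, 188, 84 and 174 in CM at day 11, TSF at day 11 libraries a and b, CM at day 16 and TSF at day 16. Their counts were lowest in CM at day 16, as were those of M2 macrophages and of M1 Macro/DC. Among annotated cells the share of monocytes was 1.51 times as high in TSF as in CM at day 16 (1.16 to 1.98). At day 11 it was 0.905 times as high (0.757 to 1.09), an interval that includes 1. The point values of monocytes thus changed direction between the days as those of M2 macrophages did. Alveolar macrophages numbered 177, 234, 224, 202 and 176 in that order. Their share without granulocytes was 0.842 times as high in TSF as in CM at day 16 (0.684 to 1.04) and 0.979 times at day 11 (0.821 to 1.17). The mixed type M1 Macro/DC numbered 70, 94, 79, 43 and 59, with a ratio of 1.33 (0.880 to 2.01) at day 16 and 0.933 (0.704 to 1.25) at day 11. Of the monocyte-derived cells as a whole, M2 macrophages were 27.6% (24.0% to 31.5%) in TSF at day 16, 17.1% (13.6% to 21.2%) in CM at day 16, and 19.8%, 17.4% and 16.5% in CM and TSF libraries a and b at day 11.

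Counted per cell of another type, M2 macrophages gave day 16 ratios of TSF over CM that depended on the type chosen, from 0.331 per neutrophil to 3.05 per endothelial cell. Per alveolar macrophage there were 0.588 M2 macrophages in CM at day 11, 0.500 and 0.433 in TSF at day 11 libraries a and b, 0.337 in CM at day 16 and 0.886 in TSF at day 16. The day 16 values differed by a ratio of 2.63 (exact conditional interval 1.83 to 3.80), and those of day 11 by 0.794 (0.589 to 1.08). Per monocyte the 5 values in the same order were 0.601, 0.513, 0.516, 0.810 and 0.897. TSF over CM at day 16 was then 1.11 (0.740 to 1.66), an interval that includes 1 and allows up to 1.66 times as many M2 macrophages per monocyte in TSF. Relative to monocytes the clearer difference was with time in TSF, where day 16 exceeded day 11 by 1.74 (1.32 to 2.31). In CM the ratio of day 16 over day 11 was 1.35 (0.882 to 2.05), an interval that includes 1. Per M1 Macro/DC cell there were 1.49, 1.24, 1.23, 1.58 and 2.64 M2 macrophages, and TSF over CM at day 16 was 1.67 (0.997 to 2.79).

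M2 macrophages per cancer cell went the other way, since cancer cells differed more between libraries than M2 macrophages did. There were 17.3 M2 macrophages per cancer cell in CM at day 11, 3.66 and 2.26 in TSF at day 11 libraries a and b, 2.34 in CM at day 16 and 1.12 in TSF at day 16. TSF over CM at day 16 was 0.479 (0.282 to 0.801). The value of CM at day 11 rests on 6 cancer cells.

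Within the M2 macrophages, the difference at day 16 was not spread evenly over the 3 clusters. In the order CM at day 11, TSF at day 11 libraries a and b, CM at day 16 and TSF at day 16, cluster 14 held 68, 67, 46, 36 and 49 M2 macrophages. Cluster 86 held 32, 33, 37, 18 and 32 in the same order. Cluster 124 held 4, 17, 13, 12 and 72. Cluster 124 was thus 3.85% of the M2 macrophages in CM at day 11 (1.06% to 9.56%), 14.5% (8.70% to 22.2%) and 13.4% (7.33% to 21.8%) in TSF at day 11 libraries a and b, 17.6% (9.47% to 28.8%) in CM at day 16 and 46.2% (38.2% to 54.3%) in TSF at day 16. The interval of TSF at day 16 lay above the other 4, and those of CM at day 16 and both libraries of TSF at day 11 overlapped each other. Cluster 124 was singled out after these counts were seen, so its values are a description. TSF at day 16 supplied 72 of its 118 M2 macrophages, and a cluster that comes mostly from 1 library may be a feature of that library rather than a type of cell.

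As shares of annotated cells without granulocytes, cluster 124 was 2.07% in TSF and 0.358% in CM at day 16, a ratio of 5.80 (3.12 to 11.7). At day 11 it was 0.317% in TSF on average and 0.112% in CM, a ratio of 2.83 (0.999 to 11.1). It was the only one of the 3 clusters whose ratio of TSF over CM was above 1 on both days. Cluster 14 gave 1.31 (0.838 to 2.08) at day 16 and 0.625 (0.461 to 0.862) at day 11, and cluster 86 gave 1.72 (0.935 to 3.25) and 0.829 (0.537 to 1.30). Of annotated cells including granulocytes, cluster 14 was 1.00% in TSF and 1.01% in CM at day 16, a ratio of 0.992 (0.632 to 1.57).

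The M2 macrophages outside cluster 124 therefore showed a smaller difference. They numbered 100, 100, 84, 56 and 84 in the same order of libraries. Their share was 1.09 times as high in TSF as in CM at day 16 (0.770 to 1.56) among annotated cells and 1.45 times (1.02 to 2.07) without granulocytes. At day 11 the corresponding ratios were 0.692 (0.541 to 0.894) and 0.694 (0.542 to 0.897). In TSF from day 11 to day 16, they were 0.926 (0.706 to 1.20) among annotated cells and 1.24 (0.948 to 1.62) without granulocytes. Both intervals include 1.

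**Figure D4:**
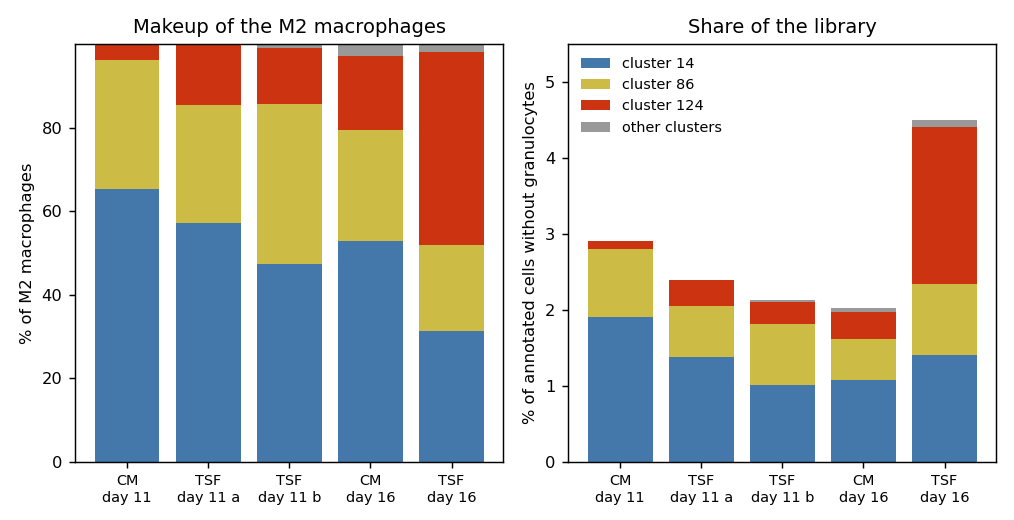
M2 macrophages by first cluster in each library, as percent of the M2 macrophages (left) and of annotated cells without granulocytes (right), in stacked bars. Cluster 124 (red) is 46.2% of the M2 macrophages in TSF at day 16 and 3.85% to 17.6% in the other 4 libraries, and clusters 14 and 86 together lie between 1.61% and 2.80% of cells in every library.

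The cells of cluster 124 also had more RNA molecules counted on average, with a wide range (884 to 32662 UMIs). Their median was 10355 UMIs and 2744 genes per cell, against 4208 UMIs and 1450 genes in cluster 14 and 4374 UMIs and 1651 genes in cluster 86. Within each library the median of cluster 124 was the highest of the 3, from 9089 UMIs in CM at day 16 to 12861 in CM at day 11. Of the 15 clusters led by monocyte-derived types with at least 20 annotated cells, cluster 124 had the highest median, and of all 130 clusters of that size it was in place 4, after 2 clusters of cancer cells and 1 of club cells. Doublets (2 cells under 1 barcode) also carry many UMIs, and the authors removed those they found. No cell they called a doublet came from cluster 124, and the 91 doublets found among the monocyte-derived cells had a median of 5451 UMIs. The authors describe doublets by markers of 2 or more cell types, which pairs of 2 M2 macrophages would lack. The part of doublets in the UMIs of cluster 124 was not tested. The median mitochondrial percent was 1.89% in cluster 124, 1.89% in cluster 14 and 2.11% in cluster 86.

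At a like number of UMIs the clusters were closer in the number of genes. Among M2 macrophages of 4000 to 6000 UMIs, the median was 1813 genes in the 15 cells of cluster 124 and 1638 in the 157 cells of clusters 14 and 86. Among M2 macrophages of 6000 to 9000 UMIs, the median was 2294 genes in the 25 cells of cluster 124 and 2209 in the 53 cells of clusters 14 and 86. In the range of 9000 to 14000 UMIs it was 2911 genes in 22 cells and 2957 in 21 cells. Cells of M1 Macro/DC had fewer genes in all 3 ranges, with medians of 1513, 1943 and 2611.

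Over all M2 macrophages, the median UMIs per cell were 4243 in CM at day 11, 4163 and 4289 in TSF at day 11 libraries a and b, 5828 in CM at day 16 and 6433 in TSF at day 16. The day 11 libraries thus lay close together and both day 16 libraries lay above them. The upper quartile separated TSF at day 16 from CM, with 12101 against 7194 UMIs. M2 macrophages of at least 8000 UMIs, a limit set after the values were seen, were 2.88% (0.599% to 8.20%) of the M2 macrophages in CM at day 11, 14.5% (8.70% to 22.2%) and 14.4% (8.12% to 23.0%) in TSF at day 11 libraries a and b, 16.2% (8.36% to 27.1%) in CM at day 16 and 39.1% (31.4% to 47.2%) in TSF at day 16. With cluster 124 left out, the ratio of the day 16 medians, TSF over CM, was 0.827 instead of 1.10.

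High counts were not a feature of every macrophage type in TSF at day 16. Alveolar macrophages had medians of 3162, 2809, 3025, 5170 and 4375 UMIs in CM at day 11, TSF at day 11 libraries a and b, CM at day 16 and TSF at day 16, so that CM was the deeper of the day 16 libraries. Monocytes had medians of 3868, 3645, 3261, 4657 and 4974 UMIs. The difference between day 16 and day 11 was shared by all 3 types. It was also seen in M1 Macro/DC, neutrophils, T cells, endothelial cells and fibroblasts, so it was not particular to macrophages. Day 16 over day 11 in median UMIs ran from 1.14 (neutrophils) to 1.64 (alveolar macrophages) in CM. In TSF, against the mean of libraries a and b, it ran from 1.02 (fibroblasts) to 1.59 (neutrophils). The share of cells with at least 8000 UMIs at day 16, TSF and CM, was 14.2% and 19.3% for alveolar macrophages, 8.05% and 5.95% for monocytes and 33.9% and 44.2% for M1 Macro/DC. The part of UMI depth in the cluster counts was not tested. Among M2 macrophages of at least 8000 UMIs the share in cluster 124 was 1.19 times as high in TSF as in CM at day 16 (0.531 to 3.11), and among those under 8000 UMIs it was 3.12 times as high (1.18 to 10.4).

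**Figure D5:**
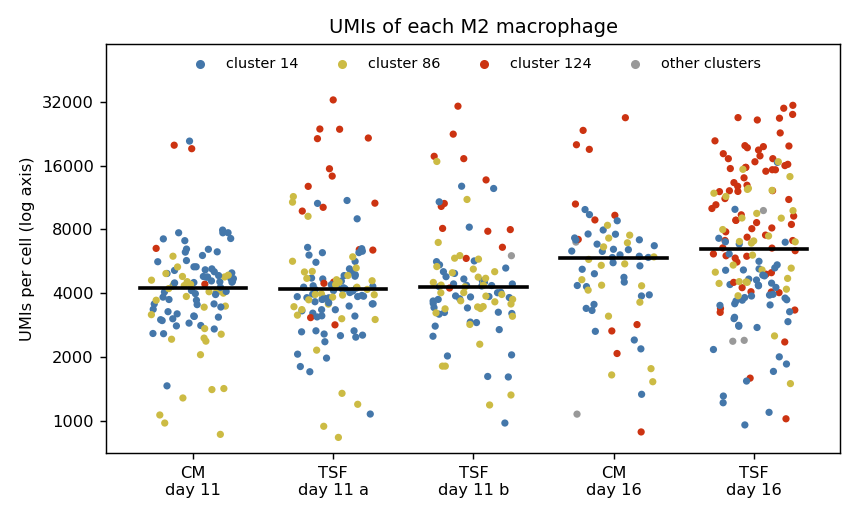
UMIs of each of the 542 M2 macrophages by library on a log axis, with 1 point per cell coloured by first cluster and a black line at the median. Points of cluster 124 (red) have the highest median of the 3 clusters in every library but reach down to low UMIs too, and they are most frequent in TSF at day 16, where the median of all M2 macrophages is 6433 UMIs.

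The finer sub-clusters can be set beside the first clusters. In 4 of the 23 sub-clusters most cells came from cluster 124, and these 4 held 109 M2 macrophages, 101 of them from cluster 124. Because they were picked by that share, their counts largely restate those of cluster 124 and are no separate support. The cells of the 4 sub-clusters numbered 3 in CM at day 11, 12 and 11 in TSF at day 11 libraries a and b, 14 in CM at day 16 and 69 in TSF at day 16. Their median UMIs were 9320 to 13912 per cell. Outside them, 1 further sub-cluster of 11 cells had a median of 11844 UMIs, with 9 of its cells from TSF at day 16, and the rest had medians between 3438 and 6810. Other sub-clusters were fed mainly by the day 11 libraries. One of 31 cells had 11 from CM at day 11, 9 and 7 from TSF at day 11, 4 from TSF at day 16 and none from CM at day 16. Another of 25 cells had 5, 7, 11, 1 and 1 in the order CM at day 11, TSF at day 11 libraries a and b, CM at day 16 and TSF at day 16.

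Because M2 macrophages hold more UMIs than the average cell, they weighed more in the RNA than in the cell counts. They gave 3.65% of the UMIs in CM at day 11, 3.47% and 2.99% in TSF at day 11 libraries a and b, 2.93% in CM at day 16 and 6.24% in TSF at day 16. The median M2 macrophage had 1.91 to 2.20 times the UMIs of the median annotated cell in the first 4 of these libraries and 2.79 times in TSF at day 16.

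Cells of 2 libraries can carry the same barcode. A barcode found in another library occurred in 15 of the 542 M2 macrophages (2.77%), and in 2 pairs both cells were M2 macrophages. Without the cells that share a barcode, the ratio of TSF over CM at day 16 among annotated cells was 1.64 (1.22 to 2.22).

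Expression per gene was analysed here only in the cancer cells of day 16, 139 in TSF and 29 in CM, as the number of UMIs per 10000 UMIs in a cell (CP10k), averaged over cells by the authors, and the number of cells with a UMI. These cells should lack macrophage genes, so their values show how often the M2 markers were still seen in cancer cells after the authors' ambient correction. They do not give the level in other cell types. C1qa and C1qb were seen in 0 of 139 and 0 of 29 cells, which allows up to 2.16% and 10.3% of cells with a UMI (3 counts of the total). After the ambient correction this limits cells with a UMI and not cells that express the gene. Mrc1 was seen in 0 and 1 cells. Apoe was seen in 7 cells of TSF and 1 of CM, at means of 0.0414 and 0.00935 CP10k. Of 12 M2 markers, 5 had a UMI in either library and 7, among them C1qc, Ms4a7, Folr2, Csf1r and Adgre1, had none. Trem2, which encodes a lipid receptor, was seen in 2 and 1 cells. Summed over the list, the level was 0.0847 CP10k in TSF and 0.0606 in CM. Of 9 alveolar macrophage markers, 3 had a UMI, namely Ear2 (0 and 1 cells), Car4 (4 and 0) and Fabp4 (2 and 0).

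Of 8 monocyte markers 7 had a UMI in the cancer cells. Nr4a1, an immediate-early nuclear receptor, was seen in 58 of 139 cells of TSF and 24 of 29 of CM, F13a1 (coagulation factor XIII) in 15 and 3, Ace (angiotensin-converting enzyme) in 58 and 7, and Ly6c2 in 20 and 2. Of 8 alternative activation genes 3 had a UMI. Tgfb1, a growth factor made by most cells, was seen in 93 and 20 cells, Mrc1 as above, and the scavenger receptor gene Cd163 in 2 and 0, while Arg1 and Retnla had no cell.

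Among 11 genes for factors that act on macrophages and monocytes, 10 had a UMI in the cancer cells. Csf1, the growth factor that macrophages depend on, was seen in 112 of 139 cells of TSF (80.6%, 73.0% to 86.8%) and 21 of 29 cells of CM (72.4%, 52.8% to 87.3%), at means of 1.17 and 1.85 CP10k. Il34, the second ligand of the same receptor, was seen in 30 and 12 cells, at 0.104 and 0.297 CP10k. Cx3cl1, which attracts monocytes that carry its receptor, was seen in 64 and 17 cells, at 0.304 and 0.859 CP10k. Csf3, which acts mainly on granulocytes, was seen in 99 and 16 cells, at 5.39 and 1.63 CP10k. Outside the naming rule and chosen after their values were seen, Ccl2, a monocyte attractant, was seen in 17 and 1 cells at 0.159 and 0.0306 CP10k, and Csf2 in 22 and 3 cells at 0.228 and 0.155 CP10k. Of the 10 genes with a UMI, 7 had the higher mean in TSF and 3 in CM (Csf1, Il34 and Cx3cl1), and 4 of the 7 rested on 1 or 2 cells, all of TSF. With 139 cells in TSF and 29 in CM, a rarely seen gene is more likely to have a UMI in TSF only. The same counts over all genes are not given here, so the counts of list members, here and above, are description only. The values come from 1 library each with no replicate check, and the part of these factors in the number of M2 macrophages was not tested.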

How the data were processed

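Lungs were dissociated and the cells of 3 mice pooled for each 5′ library of 10x Genomics. The authors mapped reads to mm10 (GRCm38.p6, with the CD90.1 sequence added) with Cell Ranger, imported UMI counts with Seurat 4.1.0, and removed ambient RNA with a modified SoupX whose subtraction depends on a cell's UMIs, which can change the UMIs given here. Cells were clustered by the authors on a UMAP of all libraries merged, annotated by hand, and clustered again within types to remove doublets. The deposited cell table gives per cell the UMI counts, the percent of mitochondrial UMIs, and UMAP positions as a score without unit. The smallest cell in it had 800 UMIs, the fewest genes were 202, and mitochondrial UMIs reached 9.99%. It also held 2 libraries that were not used here. For day 16 cancer cells, the deposited gene table gives mean CP10k as a score per library. Its fold changes, p-values and enrichment results were not used.

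Here, cells called M2 Macro were counted per library. Annotated cells exclude those the authors called doublets or unknown. Intervals are exact at 95%, from Clopper-Pearson for a share, conditional on the summed count for a ratio of shares (where the mean of libraries a and b enters, their counts were pooled for the interval), and conditional for a ratio of 2 types. They cover counting error only and were tested on simulated data. Where no cell had a UMI, the limit is 3 counts of the total. Alternatives were other denominators, a minimum of 2000 UMIs or 500 genes, at most 5% mitochondrial UMIs, and leaving out library a or b. Members and gene lists were chosen with earlier results of these data known. Named genes are the 4 markers of the cell type, the 4 with the highest mean CP10k in either library in each list, and some further list members with no cell, named after their values were seen. The value of 1 list member is not reported here. Marker coordinates came from GENCODE M21, on GRCm38. The work was done in Python 3.11.15 (scipy 1.17.1, numpy 2.4.6, pandas 2.3.3), with figures in matplotlib 3.10.9.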

Additional observations from a re-analysis of the deposited data

Results flagged for a closer look

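The direction of TSF over CM in the M2 share was opposite on the 2 days, with the day 16 library of TSF above CM and both day 11 libraries below it. The log2 ratio at day 16 minus that at day 11 was 1.11 among annotated cells and 1.51 without granulocytes. The point values were also opposite within parts of the population. The difference amounted to 1.07 on the log2 scale for cluster 14 without granulocytes, to 0.65 and 1.05 for cluster 86 among annotated cells and without granulocytes, and to 0.66 and 1.06 for the M2 macrophages outside cluster 124. Among annotated cells cluster 14 did not reverse, with 0.992 at day 16 and 0.623 at day 11. The annotated day 16 intervals include 1 for cluster 86 (0.705 to 2.45) and for the cells outside cluster 124 (0.770 to 1.56). Without granulocytes, the day 16 intervals of clusters 14 and 86 also include 1. The point values of cluster 124 were above CM on both days. Its day 11 ratio rests on 4 cells of CM, and the interval among annotated cells includes 1 (0.996 to 11.0). With 1 library per group at day 16 and 1 of CM at day 11, none of these differences was tested.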

How the results depend on the processing

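All shares rest on 68 to 156 M2 macrophages per library and on 1 library per group except TSF at day 11, so differences between mice are not measured. Of 75 alternative values over the 8 ratios, 62 stayed within the counting interval of the main value (for median UMIs, within the gap of libraries a and b), 12 moved outside it and 1 reversed. The ratio of the M2 share in TSF over CM at day 16, 1.67, was 2.29 without granulocytes and cancer cells, 2.43 without granulocytes at a minimum of 2000 UMIs, and 1.09 without cluster 124. The ratio of day 16 over day 11 in TSF, 1.48, was 1.99 without granulocytes, 2.05 without granulocytes and cancer cells, 1.16 among immune cells, and reversed to 0.926 without cluster 124. Without cluster 124 the day 16 ratio per alveolar macrophage, 2.63, was 1.72, that per monocyte, 1.11, was 0.724, and that of median UMIs, 1.10, was 0.827. The median UMI ratio was 1.21 at no more than 5% mitochondrial UMIs, and means gave 1.35. The ratio of the share in cluster 124, 2.62, was 1.19 in cells of at least 8000 UMIs. Leaving out library a or b gave 0.726 to 0.822 for TSF over CM at day 11 and 1.39 to 1.58 for day 16 over day 11 in TSF. The interval of TSF over CM at day 11 includes 1 in 6 of 16 alternatives, namely without library b (0.626 to 1.08), at a minimum of 2000 UMIs with granulocytes (0.641 to 1.06) or without (0.636 to 1.05), at 500 genes (0.627 to 1.02), among immune cells (0.636 to 1.03) and among monocyte-derived cells (0.673 to 1.09). Leaving out cluster 124, shared barcodes or cells by 8000 UMIs, and joining the granulocyte and UMI filters, were chosen after seeing the data. The cause of these shifts was not tested. No paired analysis was possible because the groups compared share fewer than 2 replicate numbers, with 1 library in all groups but TSF at day 11.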
